A study of Mus musculus with 4 samples.

Results

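Insig1 and 7 further genes of sterol sensing and cholesterol synthesis were examined in mouse kidney after injection of immune complexes or saline: Insig2, Srebf2, Hmgcs1, Sqle, Idi1, Fdft1 and Cyp51. They are 8 of the 38924 genes listed in the count files, and all 8 had enough reads to be among the 16334 genes tested. The genes were selected on measured values: their reads in this same comparison were known when the list was drawn up, and Insig1 was chosen for its difference in it. Their differences between the groups are therefore given as a description and support nothing further. RNA was sequenced from kidneys of female CB-17 SCID animals (Balb/c background), which have no working B or T cells but keep their innate immune cells. The immune complex group (2 libraries) received complexes of IgG with galactose-deficient IgA1 (Gd-IgA1), the form of IgA1 linked to IgA nephropathy, and the saline group (2 libraries) received saline. Both groups got 3 tail vein injections over 7 days, and tissue was taken the day after the last. The labels do not state whether the samples of a group came from separate animals, and p-values then reflect only the spread among these samples, which may be technical. The libraries held 22791960 and 21681408 gene reads in the immune complex group and 19675879 and 20950134 in the saline group. Intron reads made up 7.39% to 9.96% of them, and 83.4% to 85.0% were unique.

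Cells sense cholesterol in the membrane of the endoplasmic reticulum. The transcription factor SREBP2, encoded by Srebf2, is made as a membrane precursor that binds the escort protein Scap, and when sterols are low Scap carries it to the Golgi, where 2 proteases release the active factor. When sterols are plentiful, the Insig proteins hold Scap back in the endoplasmic reticulum, and the precursor stays uncut. SREBP2 raises transcription of nearly every enzyme of cholesterol synthesis and of Insig1 itself, whereas Insig2 is much less dependent on it. In kidney, tubule cells take up lipoproteins and filtered proteins and also synthesise cholesterol of their own.

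The DNA just upstream of 3 of the genes is shown because it differs in exact matches to the element through which SREBP2 is known to act. The genes are Insig1, Hmgcs1 and Cyp51. Reads of Insig1 differed most between the groups, Hmgcs1 was the most abundant of the 8 genes, and Cyp51 varied most among libraries. The sequences are from RefSeq on the mouse build GRCm38.p6 and run 5′ to 3′ on the gene's strand. They stop before the annotated gene model, so that 201 bases are shown for Insig1 (chr5:28071162-28071362, plus strand), 250 for Hmgcs1 (chr13:119690101-119690350, plus strand) and 201 for Cyp51 (chr5:4104747-4104947, minus strand). Capitals mark exact matches, on either strand, to the sterol regulatory element (SRE) TCACNCCAC, a shorter SRE core TCACNNCA that every SRE match also contains, the CCAAT box CCAAT, the GC box GGGCGG and the E-box CACGTG. The motifs were chosen with the sequences in view.
Insig1: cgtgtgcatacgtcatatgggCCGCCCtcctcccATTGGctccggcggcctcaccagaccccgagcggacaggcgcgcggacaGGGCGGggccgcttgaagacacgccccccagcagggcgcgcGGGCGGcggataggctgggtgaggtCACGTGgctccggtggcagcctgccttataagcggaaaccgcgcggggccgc
Hmgcs1: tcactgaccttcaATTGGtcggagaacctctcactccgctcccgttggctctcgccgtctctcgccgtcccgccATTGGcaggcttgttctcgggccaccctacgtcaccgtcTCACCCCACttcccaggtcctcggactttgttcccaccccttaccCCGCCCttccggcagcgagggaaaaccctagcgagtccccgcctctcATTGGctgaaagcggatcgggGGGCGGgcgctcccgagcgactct
Cyp51: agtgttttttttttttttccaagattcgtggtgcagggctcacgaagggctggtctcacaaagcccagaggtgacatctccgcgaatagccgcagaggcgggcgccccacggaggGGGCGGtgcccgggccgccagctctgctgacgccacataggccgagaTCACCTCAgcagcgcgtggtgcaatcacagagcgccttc

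Within the 250 bases before the RefSeq start, Hmgcs1 held a full SRE match beginning 137 bases upstream, with 3 CCAAT boxes and 2 GC boxes around it. Cyp51 held an SRE core 88 bases upstream and a GC box 135 bases upstream, and its single CCAAT box lay 29 bases upstream, in the 49 bases not shown. Insig1 held neither form of the SRE in its window. It had a CCAAT box on the other strand 216 bases upstream, 3 GC boxes at 229, 167 and 126 bases, and an E-box 101 bases upstream. Srebf2 held 2 SRE cores, 220 and 162 bases upstream, and Idi1 held CCAAT and GC boxes without an SRE core. Of the 3 windows of Insig2, 1 held an SRE core 161 bases upstream with 3 CCAAT boxes, and the other two held a GC box each and neither of these. RefSeq windows were found for 6 of the 8 genes (8 windows, 3 of them for Insig2), and Sqle and Fdft1 had none in the table used. Counting a gene if any of its windows matched, of those 6 genes 1 held the full SRE, 4 the SRE core, 6 a CCAAT box, 6 a GC box and 1 an E-box. Over all 32851 RefSeq windows of the same length, 1.05% held the full SRE, 11.4% the SRE core, 33.9% a CCAAT box, 32.7% a GC box and 6.02% an E-box. These shares are per window, so they cannot be set directly against a gene with several windows. A match describes letters and not a bound site, and a window without a match says only that these letters are absent from it.

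Across the 8 genes, only Insig1 had clearly more reads in immune complex kidneys, about 2.15-fold, while the folds of the other 7, immune complex over saline, lay between 0.849 for Srebf2 and 1.15 for Idi1. By edgeR's quasi-likelihood test with Benjamini-Hochberg adjustment over all tested genes, none of the 8 passed the threshold of 0.05. Neither did any of the 16334 genes: 0% were called higher and 0% lower, with 749 genes at an unadjusted p under 0.05 (324 higher and 425 lower). DESeq2 called 96 genes and limma-voom called 0. Leaving out single saline libraries changed the edgeR counts: 22 genes were called higher and 25 lower without saline 1, and 123 higher and 156 lower without saline 2. The library-scaled immune complex and saline values did not overlap in 2 of the 8 genes, Insig1 and Fdft1, both higher, and in none lower. Over all tested genes 15.4% lay apart in this way with the immune complex libraries higher and 14.6% with them lower. In the authors' deposited table, 80 of 16128 genes (0.496%) had an adjusted p under 0.05, and Insig1 was the only one of the 8 among them.

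**Figure D1:**
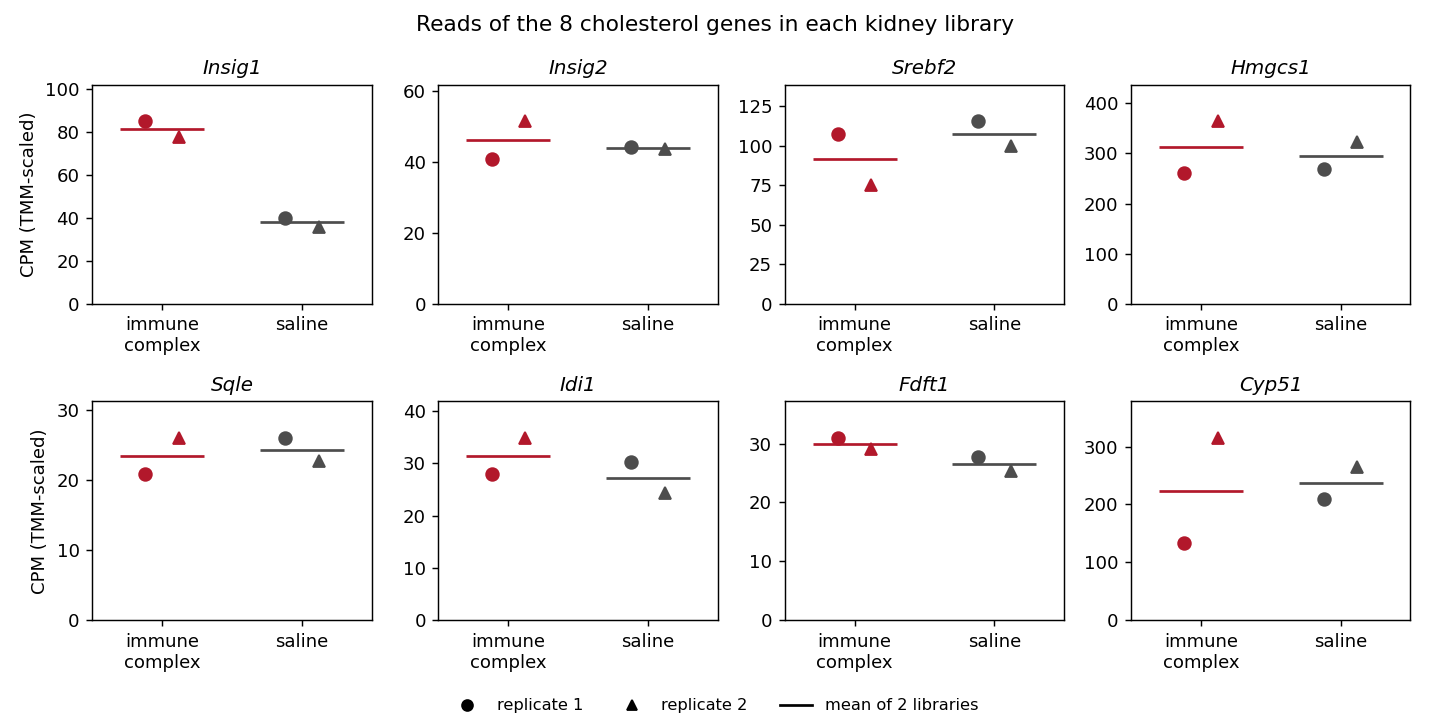
Library-scaled reads (CPM, TMM-scaled) of each of the 8 genes in the 2 immune complex libraries (red) and the 2 saline libraries (grey). Points are libraries, circles replicate 1 and triangles replicate 2, and lines are group means. Insig1 lies at 77.5 to 85.0 CPM in immune complex and 35.7 to 40.0 CPM in saline libraries, and the groups overlap for the other genes except Fdft1.

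Insig1 (ENSMUSG00000045294, GRCm38 chr5:28071363-28078662, plus strand) encodes the SREBP2-induced Insig protein, which retains Scap in the endoplasmic reticulum. It had 1896 and 1641 reads in the immune complex libraries, against 813 and 755 reads in the saline libraries. Scaled by library total and TMM factor (CPM), these were 85.0 and 77.5 CPM in immune complex kidneys and 40.0 and 35.7 CPM in saline kidneys. Both immune complex libraries were therefore above both saline libraries, and replicates lay close together in each group. The means were 81.3 ± 5.24 CPM in immune complex and 37.9 ± 3.03 CPM in saline kidneys (SD, n = 2 each). The log2 fold change, immune complex over saline, was 1.10 ± 0.17 (SE of the edgeR fit), with an adjusted p of 0.457 by edgeR's quasi-likelihood test. Among the 16334 tested genes, Insig1 ranked 11 by p and 247 by log2 fold change counted from the highest down. The authors' deposited table codes its fold changes as saline over immune complex, and there Insig1 had a log2 value of −0.85 ± 0.18 (SE), an adjusted p of 0.00123 and rank 20 by p. DESeq2 run on the same reads gave a log2 fold change of 1.09 with an adjusted p of 0.00163, so the call rested on the test used.

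Nearly all Insig1 reads lay in exons. Intron reads, which come largely from unspliced RNA, numbered 21 and 23 in immune complex libraries, against 8 and 6 in saline libraries. Their sums were 44 in immune complex and 14 in saline libraries, so the few intron reads were also higher in both immune complex libraries. On exon reads alone the log2 fold change of Insig1 was 1.12. No other gene of GENCODE M21 overlaps the Insig1 model, and all of its reads were unique in each library.

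Insig2 (GRCm38 chr1:121304353-121332589, minus strand), the second Insig protein, holds Scap back in the same way. It had 40.7 and 51.5 CPM in immune complex libraries, against 44.2 and 43.6 CPM in saline libraries. The saline values fell between the immune complex ones, and the log2 fold change was 0.07 ± 0.19 (SE). Levels of the paralogs can be set side by side only per length, in RPKM as deposited, which divides exon reads by exon length and library total. Insig1 was 2.71 and 1.96 times as high as Insig2 in RPKM in immune complex libraries, and 1.18 and 1.08 times as high in saline libraries. The ratio was higher in both immune complex libraries than in either saline library.

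Srebf2 (GRCm38 chr15:82147266-82205376, plus strand), which encodes SREBP2, had 107.2 and 75.4 CPM in immune complex libraries and 115.4 and 99.6 CPM in saline libraries. The groups overlapped, immune complex 2 being the lowest of the 4, and the log2 fold change was −0.24 ± 0.22 (SE). Intron reads made up 7.63% to 10.2% of its reads. The microRNA gene Mir33, which lies in a Srebf2 intron, and the model Gm49502 share its strand, and reads from them cannot be told apart from Srebf2 reads. The Insig1 to Srebf2 ratio in RPKM was 1.60 and 2.09 in immune complex libraries, against 0.687 and 0.726 in saline libraries. Srebf2 thus stood below Insig1 in both immune complex libraries and above it in both saline libraries.

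Among the enzymes, Hmgcs1 (GRCm38 chr13:119690462-119708086, plus strand) makes HMG-CoA, an early intermediate of the mevalonate pathway. It had 261.4 and 364.1 CPM in immune complex libraries, against 268.9 and 323.0 CPM in saline libraries. Within each group replicate 2 was the higher, the groups overlapped, and the log2 fold change was 0.08 ± 0.23 (SE). Idi1 (GRCm38 chr13:8885501-8892451, plus strand) isomerises isopentenyl diphosphate, the building unit of sterols. It had 27.9 and 34.8 CPM in immune complex libraries, against 30.2 and 24.3 CPM in saline libraries. Saline 1 lay between the immune complex values, and the log2 fold change was 0.20 ± 0.21 (SE). Between 73.5% and 78.6% of Idi1 reads were unique, and the log2 fold change on unique reads alone was also 0.20.

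Fdft1 (GRCm38 chr14:63145153-63177793, minus strand) encodes squalene synthase, the first enzyme committed to sterols. It had 31.0 and 29.0 CPM in immune complex libraries, against 27.7 and 25.4 CPM in saline libraries. Both immune complex values were the higher in CPM, and the log2 fold change, 0.17 ± 0.17 (SE), was about the size of its SE. In RPKM as deposited the groups overlapped, at 9.54 and 9.42 in immune complex and 9.49 and 8.08 in saline libraries. Its reads were 75.9% to 82.5% unique, its intron share ran from 4.89% to 9.99%, and its 3′ end overlaps Ctsb on the opposite strand. Sqle (GRCm38 chr15:59315077-59331192, plus strand), squalene epoxidase, another control point of the pathway, had 20.9 and 25.9 CPM in immune complex libraries and 26.0 and 22.7 CPM in saline libraries. These groups overlapped almost fully, with a log2 fold change of −0.06 ± 0.20 (SE).

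Cyp51 (GRCm38 chr5:4081145-4104746, minus strand), lanosterol demethylase, varied most. It had 132.6 and 315.0 CPM in immune complex libraries, against 209.7 and 263.9 CPM in saline libraries. The immune complex libraries held both the lowest and the highest value and differed 2.38-fold from each other, against 1.26-fold between the saline libraries. The log2 fold change was −0.08 ± 0.39 (SE), and it was −0.84 without immune complex 2 and 0.41 without immune complex 1. No source used here gives the strand setting of the counts, so for Fdft1 and for Cyp51, which overlaps Akap9, reads of the opposite-strand neighbour cannot be told apart; the same holds for the gene models opposite Hmgcs1, Idi1 and Insig2, which overlap them by 6190, 323 and 3058 bases. In the authors' deposited table the log2 values of these 7 genes, saline over immune complex, lay between −0.14 for Idi1 and 0.18 for Srebf2, and none had an adjusted p under 0.05.

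**Figure D2:**
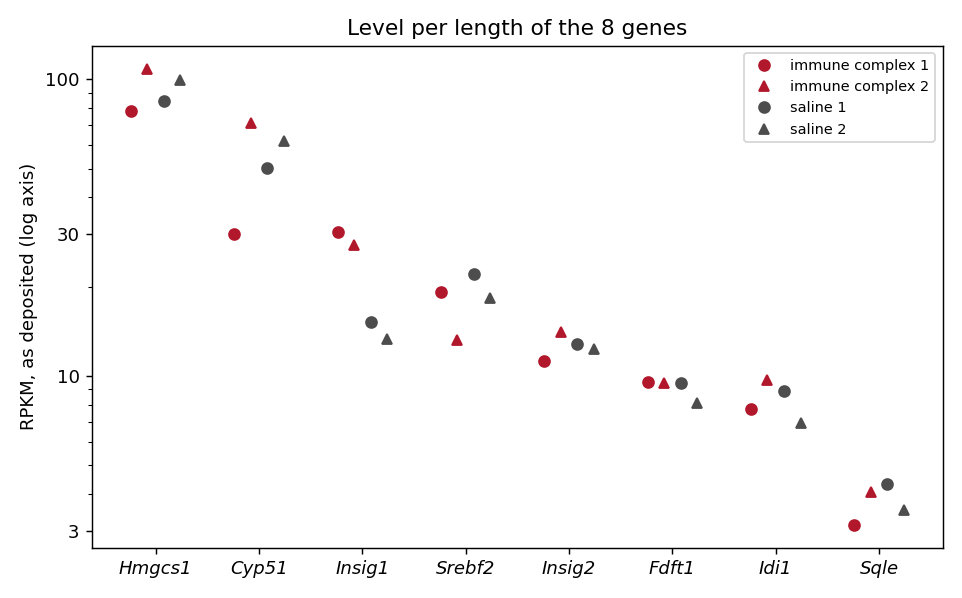
Level per length of the 8 genes in RPKM, as deposited, on a log axis, with immune complex libraries in red and saline libraries in grey, genes ordered by their mean over the 4 libraries. The order runs from Hmgcs1 (mean 92.8 RPKM) to Sqle (mean 3.76 RPKM), and for Insig1 alone the red points stand well apart from the grey ones.

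Per length the genes spanned a wide range of levels. Hmgcs1 was the highest in every library, at 78.2 and 108.6 RPKM in immune complex and 84.8 and 99.6 RPKM in saline libraries. Cyp51 followed with 30.1 and 71.3 RPKM in immune complex and 50.2 and 61.8 RPKM in saline libraries. Insig1 had 30.5 and 27.7 RPKM in immune complex libraries, where it ranked 3 by the group mean, against 15.2 and 13.3 RPKM in saline libraries, where it ranked 4 behind Srebf2. Srebf2 ranged from 13.2 to 22.1 RPKM, Insig2 from 11.3 to 14.1, Fdft1 from 8.08 to 9.54, Idi1 from 6.95 to 9.69 and Sqle from 3.14 to 4.31 RPKM over the 4 libraries. Neighbours in this order whose ranges overlapped were Cyp51 and Insig1, Insig1 and Srebf2, Srebf2 and Insig2, and Fdft1 and Idi1. The ranges of Hmgcs1 and Cyp51, of Insig2 and Fdft1, and of Idi1 and Sqle did not overlap.

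The 8 genes did not share one pattern over the libraries. Likeness was measured as the distance between log2 CPM values (prior count 2), each centred on the gene's own mean over the 4 libraries, so that 0 means an identical pattern. The closest pair was Insig2 with Sqle, at 0.175, followed by Insig2 with Hmgcs1, at 0.226. Insig1 was far from all of them, at 0.927 from Fdft1, 0.960 from Idi1 and 1.67 from Cyp51. Among 9737 genes with a mean of at least 10 CPM, those nearest to Insig1, leaving out gene-model names, were Slc7a15, Glul, Gsn, Hba-a1, Adra1a and Hba-a2. All 6 were picked for resembling Insig1, so their differences between groups are not a result.

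Glul, glutamine synthetase, was 0.246 from Insig1 and had 1316 and 1439 CPM in immune complex libraries, against 750.4 and 686.3 CPM in saline libraries. Gsn, the actin-severing protein gelsolin, was 0.248 away and had 251.2 and 262.6 CPM in immune complex libraries, against 119.6 and 129.8 CPM in saline libraries. Adra1a, an alpha-1 adrenergic receptor, had 25.5 and 28.3 CPM in immune complex libraries, against 12.4 and 9.65 CPM in saline libraries. The 2 alpha-globin genes Hba-a1 and Hba-a2 are near-identical copies whose reads may be shared between them; Hba-a1 had 230.7 and 217.1 CPM in immune complex libraries, against 137.1 and 112.8 CPM in saline libraries. Slc7a15 was the nearest, at 0.185, but its reads were almost all intronic, and its exon level was 0.0440 and 0.0617 RPKM in immune complex and 0.0680 and 0.0798 RPKM in saline libraries. With exon reads alone, 4 of the 6 stayed, and Abca1 and Cav1 took the places of Slc7a15 and Adra1a.

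The rest of the sterol machinery was counted gene by gene, and no list had a gene past the edgeR threshold. Of 7 genes of sterol sensing and SREBP processing, 4 had a log2 fold change above 0 and 3 below, with a median of 0.02, beside 8481 above, 7853 below and a median of 0.01 over all tested genes. Scap had 85.9 and 82.4 CPM in immune complex libraries, below the 109.2 and 94.0 CPM of the saline libraries, with a log2 fold change of −0.27 ± 0.17 (SE). The proteases that release SREBP2, Mbtps1 and Mbtps2, had log2 fold changes of −0.00 and 0.02. Srebf1, which encodes the related SREBP1 of fatty acid synthesis, had 122.6 and 62.0 CPM in immune complex libraries, against 66.4 and 55.5 CPM in saline libraries. Its high value came from immune complex 1 alone: the log2 fold change was 0.60 ± 0.32 (SE), and 0.03 without that library.

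Of 7 genes of protein degradation that act with the Insig proteins, 3 had a log2 fold change above 0 and 4 below. Their median was −0.02. The groups lay apart and higher for 1 and apart and lower for 1, beside 15.4% and 14.6% of all tested genes. The gene apart and lower was Rnf139, a ubiquitin ligase of the endoplasmic reticulum membrane that binds Insig proteins. It was low throughout, at 3.18 and 5.43 CPM in immune complex libraries against 8.61 and 6.76 CPM in saline libraries. The log2 fold change was −0.84 ± 0.34 (SE), and it ran from −1.27 to −0.50 when single libraries were left out.

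**Figure D3:**
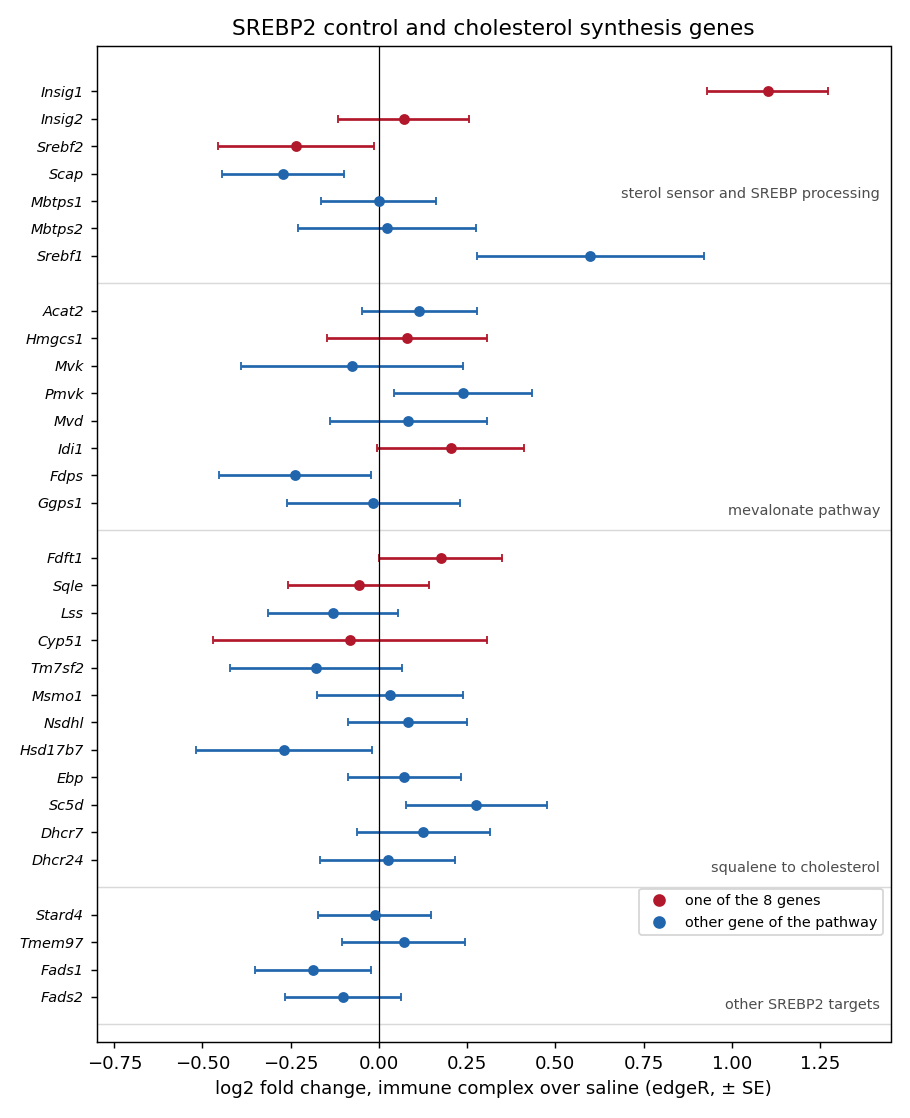
Log2 fold change, immune complex over saline, with its SE from the edgeR fit, for genes of sterol sensing, the mevalonate pathway, the steps from squalene to cholesterol and other SREBP2 targets (red for the 8 genes, blue for the others). Insig1 lies at 1.10, and every synthesis enzyme plotted lies between −0.27 and 0.28.

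Of 22 enzymes of cholesterol synthesis, 21 were tested and Idi2 had too few reads. Their log2 fold changes ran from −0.27 to 0.28 with a median of 0.03, so that all 21 differed by less than 0.5 on the log2 scale, as did 14137 of all 16334 tested genes. The immune complex values lay apart and higher for 5 of the 21 enzymes and apart and lower for 1, counts to be read against the 15.4% and 14.6% of all genes. The 16 tested enzymes outside the 8 genes had a median of 0.03, with 9 above 0 and 7 below. Among the 5 enzymes of the 8 genes the SE ran from 0.17 for Fdft1 to 0.39 for Cyp51. In the same fit Insig1, at 1.10 ± 0.17 (SE), was not called. With 2 libraries in each group, differences well above these SEs could therefore also go uncalled.

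In the mevalonate pathway the lowest unadjusted p values outside the 8 genes belonged to Pmvk, phosphomevalonate kinase, with a log2 fold change of 0.24 ± 0.20 (SE), and to Fdps, farnesyl diphosphate synthase, with −0.24 ± 0.22 (SE). Between squalene and cholesterol they belonged to Sc5d, a sterol desaturase, with 0.28 ± 0.20 (SE), and Hsd17b7, a sterone reductase, with −0.27 ± 0.25 (SE). Each of these 4 values was within 1.5 times its SE.

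Of the other SREBP2 targets, 7 of 8 were tested, with 3 above 0, 4 below and a median log2 fold change of −0.01. This list shares a gene with the enzymes of cholesterol synthesis, so the counts of the lists are not independent. Fads1 and Fads2, desaturases of polyunsaturated fatty acids, lay apart and lower, as did 14.6% of all tested genes. Their log2 fold changes were small, at −0.19 ± 0.17 and −0.10 ± 0.16 (SE). Uptake and lysosomal export genes had a median of 0.05 over 8 genes, with Npc1 at 0.15 ± 0.21 and Npc2 at 0.10 ± 0.18 (SE), the proteins that pass cholesterol out of lysosomes.

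On the disposal side, Abca1, the transporter that loads cholesterol onto apolipoprotein A-I, had 59.4 and 64.3 CPM in immune complex libraries, against 33.3 and 35.1 CPM in saline libraries. Its groups lay well apart, like those of Insig1, and the log2 fold change was 0.85 ± 0.17 (SE) with an adjusted p of 0.585 by edgeR's quasi-likelihood test. It was 0.347 from Insig1 in pattern, rank 8 of 9737 genes. Among the other genes around the sterol-activated nuclear receptors LXR, Pltp, a phospholipid transfer protein, had a log2 fold change of 0.39 ± 0.27 (SE) with overlapping groups. Nr1h2, which encodes LXR beta, had −0.31 ± 0.22 (SE). The list's median was 0.10 over 8 tested genes, with 2 apart and higher and 2 apart and lower, beside 15.4% and 14.6% of all tested genes. Cyp27a1, which makes 27-hydroxycholesterol, had 37.4 and 31.0 CPM in immune complex libraries, against 20.8 and 20.9 CPM in saline libraries, and a log2 fold change of 0.71 ± 0.19 (SE). The 9 tested genes of sterol esters and oxysterols had a median of −0.12, and Ch25h, at about 1 CPM or below, had −0.64 ± 0.53 (SE).

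The fatty acid branch differed in its counts from the cholesterol branch. Of 12 lipogenic genes that SREBP1 is known to induce, 11 had a log2 fold change above 0 and 1 below, the groups lay apart and higher for 7 and lower for 1, and the median was 0.42. Over all tested genes 8481 of 16334 were above 0, 15.4% lay apart and higher, 14.6% lay apart and lower, and the median was 0.01. Fasn, fatty acid synthase, had 858.0 and 382.5 CPM in immune complex libraries, against 90.2 and 346.3 CPM in saline libraries. Most of the distance came from the high immune complex 1 and the low saline 1. Acaca, acetyl-CoA carboxylase, had 128.3 and 85.0 CPM in immune complex libraries, against 28.9 and 75.2 CPM in saline libraries, a log2 fold change of 1.04 ± 0.44 (SE). Without saline 2 the log2 fold change of Acaca was 1.87, with an adjusted p of 0.00204 by edgeR's quasi-likelihood test. It was 0.50 without saline 1 and 0.71 without immune complex 1, and was not called in either case. Gpam, the first acyltransferase of triglyceride synthesis, had 73.4 and 77.5 CPM in immune complex libraries, against 50.9 and 60.5 CPM in saline libraries. The difference between the branches itself was not tested, and neither was the part of adipocyte RNA in it.

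Adipocyte RNA moved with the groups, and fat cells are known to express Insig1, Abca1 and the lipogenic genes. The 10 white adipocyte markers summed to 1552 and 1158 CPM in immune complex libraries, against 79.3 and 512.8 CPM in saline libraries, and all 10 lay apart and higher, as did 15.4% of all tested genes. Adipoq, adiponectin, had 87.8 and 78.6 CPM in immune complex libraries, against 0.148 and 24.9 CPM in saline libraries. Saline 1 was thus nearly free of it and saline 2 was not: the sum in saline 2 was 6.46 times that in saline 1, while Insig1 in saline 2 was 0.893 times its value in saline 1. Insig1's log2 fold change was 1.18 without saline 1 and 1.01 without saline 2. The 12 lipogenic genes summed to 1.51 times as much in saline 2 as in saline 1. The part of adipocyte RNA in the differences of Insig1 and of the lipogenic genes between groups was not tested.

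Markers of other cell types varied as well, not all of them with the groups. The 10 macrophage markers summed to 275.8 and 305.9 CPM in immune complex libraries, against 222.2 and 239.2 CPM in saline libraries, with 7 apart and higher, as were 15.4% of all tested genes. The 8 collecting duct markers summed to 932.4 and 629.7 CPM in immune complex libraries, against 2231 and 919.3 CPM in saline libraries. These sums overlapped, immune complex 1 lying above saline 2. Of the 8 markers 4 lay apart and lower, as did 14.6% of all tested genes, and 2 had a log2 fold change above 0. Brown adipocyte markers summed to 234.5 and 132.4 CPM in immune complex libraries and 83.1 and 149.5 CPM in saline libraries, and these sums overlapped. Of the 6 brown adipocyte markers, 5 had a log2 fold change above 0 and 1 below. The groups lay apart and higher for 1 of them, as they did for 15.4% of all tested genes. The part of these cell types in the Insig1 difference was not tested. In whole tissue, fewer cells of a type and less RNA per cell cannot be told apart. Adrenal cortex, a steroid-making neighbour rich in cholesterol genes, was close to absent: its 8 markers summed to 3.14 and 4.02 CPM in immune complex and 2.61 and 2.41 CPM in saline libraries, with Cyp11b2 at 0 in all 4. The 6 hepatocyte markers summed to 68.1 and 60.9 CPM in immune complex and 53.7 and 70.7 CPM in saline libraries. Only Cyp7a1 among them was at 0 in all 4. Proximal tubule markers summed to 9856 to 11084 CPM, as the kidney label requires. Loop and distal nephron markers summed to 6134 and 8438 CPM in immune complex and 8464 and 8031 CPM in saline libraries. The 6 podocyte markers summed to 518.6 and 389.0 CPM in immune complex and 399.2 and 382.8 CPM in saline libraries. These podocyte sums overlapped, and 3 of the 6 markers lay apart and higher, as did 15.4% of all tested genes.

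**Figure D4:**
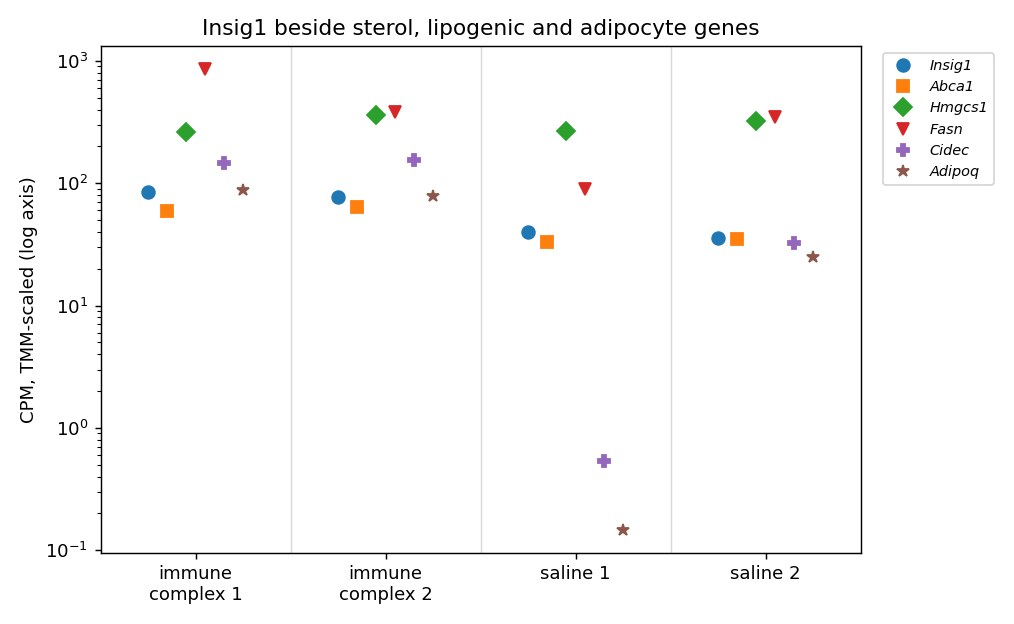
CPM (TMM-scaled, log axis) of Insig1, the efflux gene Abca1, the synthesis gene Hmgcs1, the lipogenic gene Fasn and the adipocyte genes Cidec and Adipoq in each library, immune complex on the left. Adipoq and Cidec lie far lower in saline 1 (0.148 and 0.541 CPM) than in saline 2 (24.9 and 32.2 CPM), while Insig1 is at 40.0 and 35.7 CPM in these libraries.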

How the data were processed

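RNA selection, counting tool and strandedness were not given in the sources used here. STAR 2.5.2b, DESeq2 and the build GRCm38 appear in the submitters' processing notes. Per the file headers, the authors deposited raw counts per gene (total, unique, exon and intron reads) in each of 4 libraries, with RPKM values and lengths in bases. RPKM as deposited was recovered for 99.7% of genes from exon reads (total reads where a gene lists no exons), exon length and the library total, within a relative difference of 0.0001. A further table deposited by the authors gives log2 fold changes, p-values and adjusted p-values, and its read counts equal the total gene reads. Its sign is coded saline over immune complex, since it opposes the read ratio for all 80 called genes.

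Total gene reads (19675879 to 22791960 per library) were tested by edgeR 4.0.16 in R 4.3.3 with filterByExpr, TMM, glmQLFit and glmQLFTest, 2 libraries against 2, Benjamini-Hochberg adjustment over 16334 genes, threshold 0.05, no replicate block. TMM factors were 0.980 and 0.977 for immune complex and 1.03 and 1.01 for saline libraries. Degrees of freedom were 2 residual and 4.61 prior, with a common biological coefficient of variation of 0.212. CPM values use TMM-scaled sizes. An SE is the log2 fold change over the square root of its F statistic. The fit was tested on simulated data before use. Alternatives were DESeq2 1.42.0, limma-voom (limma 3.58.1), library totals, other filters, a prior count of 0.5, exon or unique reads, a replicate block and leaving out each library.

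The 8 genes and all lists were chosen with earlier results of these data known. Named were all 8 genes, from each pathway list up to 3 others by the lowest unadjusted p, Scap always, and the 6 genes nearest to Insig1. Some genes taken by this rule are not reported here. Mbtps1 and Cidec were named after their values were seen. Motifs were searched as exact strings in RefSeq windows.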

Additional observations from a re-analysis of the deposited data

How the results depend on the processing

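Insig1 kept its direction under all 13 alternatives (log2 fold change 1.01 to 1.18), and DESeq2 was the only one that called it (1.09). Among the other alternatives that kept all 4 libraries, its adjusted p ran from 0.0647 by edgeR with the replicate block to 0.498 by limma-voom. Genes called higher numbered 36 with DESeq2, 27 with the replicate block, and 0 to 123 over fits that left out 1 library. Genes called lower numbered 60 with DESeq2, 28 with the replicate block, 2 with no filter, 1 on unique reads and 0 to 156 over fits leaving out 1 library. The labels do not say whether replicate numbers pair the samples. Between the groups, the differences of replicate 1 and 2 had a correlation of −0.135 across 16334 genes, which cannot decide this. With the block Insig1 had 1.10. With the pairing crossed, an alternative chosen after seeing the data, 72 genes were called higher and 88 lower.

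Leaving out 1 library in turn, where the lone library is assumed to vary like the others, gave log2 ranges that spanned 0 for Insig2 (−0.11 to 0.23), Hmgcs1 (−0.18 to 0.30), Sqle (−0.223 to 0.0916), Cyp51 (−0.84 to 0.41), Hsd17b7 (−0.619 to 0.0138), Npc1 (−0.0727 to 0.335) and Npc2 (−0.0343 to 0.215). Srebf2 (−0.51 to −0.00), Idi1 (0.03 to 0.37) and Fdft1 (0.10 to 0.24) kept their sign. Over all 13 alternatives the cholesterol enzymes' median stayed between −0.03 and 0.11. Its lowest value came with scaling by library totals, which put the median of all genes at −0.05. With 2 libraries per group and no stated animals, differences of the size seen for the synthesis enzymes could not be resolved; the cause of the reversals was not tested.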
